A study of Homo sapiens with 15 samples.

Results

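Expression of 10 genes for secreted stress hormones and angiogenic factors was followed in HT-1080 cells, a human fibrosarcoma line, before and after senescence and after exposure to the kinase inhibitor GNF-7. The genes were GDF15, FGF21, ADM, ADM2, STC1, STC2, VEGFA, VEGFC, ANGPTL4 and INHBE, found by symbol among the 60670 genes of the count table, and all 10 were listed there. The study compared 5 groups of 3 libraries, which the labels call biological replicates, by sequencing of poly(A) RNA. Cycling cells received the vehicle DMSO, with a labelled time of 6 h. Senescence had been brought on by 6 days of a dominant negative TRF2 mutant, which uncaps telomeres, and those cells then received DMSO for 6 h, 1 uM GNF-7 for 6 h, DMSO for 24 h or 1 uM GNF-7 for 24 h. All cells were grown at 5% oxygen. Every senescent group carried the TRF2 mutant, the vehicle groups included, and there was no cycling group with GNF-7 and no cycling group at 24 h. The promoter that drives the mutant and whether the line is a clone are not given in the sources used here.

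The study's title links GNF-7 to GCN2, a kinase of the integrated stress response. In that response phosphorylation of the initiation factor eIF2 lowers general translation while the transcription factor ATF4 is made, and ATF4 with its partners switches on genes of amino acid supply and several secreted hormones. GDF15, FGF21, ADM2, STC2, VEGFA and INHBE are known as targets of this response in various cells, GDF15 also of p53, and ADM, STC1, STC2, VEGFA and ANGPTL4 are known targets of the hypoxia factors. The products act outside the cell on appetite, lipid use, calcium and phosphate balance, vessel tone and vessel growth, and messenger RNA levels do not measure their secretion.

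Libraries held between 25991007 and 32323393 counts on genes. Libraries of 1 group correlated at 0.995 to 0.998 (Pearson r over genes, log2 scale) and libraries of different groups at 0.783 to 0.993. TERF2, the gene for TRF2, rose from 58.2 ± 3.65 to 287 ± 8.17 CPM (counts per 1000000 counts, scaled by the TMM method; SD, n = 3) between cycling and senescent vehicle cells, in the direction of the label; counts do not tell the mutant from the cells' own transcript. Among senescent cells TERF2 was lower with GNF-7 than with vehicle at both times. The log2 change was -0.37 at 6 h (edgeR adjusted p = 7.34e-12) and -0.73 at 24 h (adjusted p = 3.53e-24). In vehicle it was lower at 24 h than at 6 h (log2 -0.39, adjusted p = 1.90e-11). The lowest senescent group, GNF-7 at 24 h, held 132 ± 5.38 CPM, above cycling cells. The part of TERF2 in the results below was not tested. The mitochondrially encoded share of counts was 3.75 to 5.01% in cycling cells, 11.2 to 12.4% in senescent vehicle cells at 6 h, 13.2 to 15.3% with GNF-7 at 6 h, 15.1 to 18.7% in vehicle at 24 h and 22.6 to 24.1% with GNF-7 at 24 h. All 8 mesenchymal markers were detected, with a summed level of 7330 to 8781 CPM outside the group given GNF-7 for 24 h and 5932 to 6252 CPM within it. The 4 epithelial markers summed to at most 2.50 CPM, the 4 endothelial markers to at most 2.67 CPM and the 4 blood markers to at most 0.353 CPM. In these bulk samples, fewer cells of a type and less RNA per cell cannot be told apart.

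Of the 10 genes, 8 had enough counts for the test across 18563 genes, and FGF21 and ANGPTL4 had not. A gene is called below when edgeR's quasi-likelihood test gave an adjusted p (Benjamini-Hochberg, over all 18563 genes) under 0.05. Between cycling cells and senescent vehicle cells at 6 h, GDF15, ADM, STC1, STC2 and VEGFA rose, ADM2 and INHBE fell, and VEGFC was not called. That is 7 of 8 called, in a comparison in which 70% of all tested genes were called, 35.6% higher and 34.4% lower. With GNF-7 at 6 h, GDF15, ADM2, STC2, VEGFA and INHBE rose, VEGFC fell, and ADM and STC1 were not called, against 39.3% called over all tested genes, 17.9% higher and 21.4% lower. With GNF-7 at 24 h the same 5 genes rose, VEGFC and STC1 fell, and ADM was not called, against 58.9% over all, 29.3% higher and 29.7% lower. The median log2 fold change of the 8 genes was 1.03 for senescence, 0.43 for GNF-7 at 6 h and 0.61 for GNF-7 at 24 h, beside 0.06, 0.01 and 0.04 over all tested genes.

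Changes of at least 2-fold were fewer. In senescence 4 of the 8 genes were called at least 2-fold higher (GDF15, ADM, STC2 and VEGFA, against 18.5% of all tested genes) and INHBE at least 2-fold lower (against 7.56%). With GNF-7, ADM2 and INHBE were called at least 2-fold higher at both times, against 4.16% of all tested genes at 6 h and 10.3% at 24 h, and VEGFC at least 2-fold lower at 24 h, against 3.92%; at 6 h no member was, against 0.566%. The effect of GNF-7 itself differed between 24 h and 6 h for 5 of the 8, GDF15, VEGFA and INHBE upward and STC1 and VEGFC downward, against 30.8% of all tested genes (12.8% upward and 18% downward). For GDF15 that difference (log2 0.13, adjusted p = 0.0375) was not called in 15 of 24 alternatives, 10 of them fits that left out 1 library. That difference was at least 2-fold for INHBE, against 2.93%, and for VEGFC in the other direction, against 2.06%. When the mitochondrially encoded genes were left out of the table, the same genes were called in the senescence comparison and in both comparisons of GNF-7 with vehicle.

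**Figure D1:**
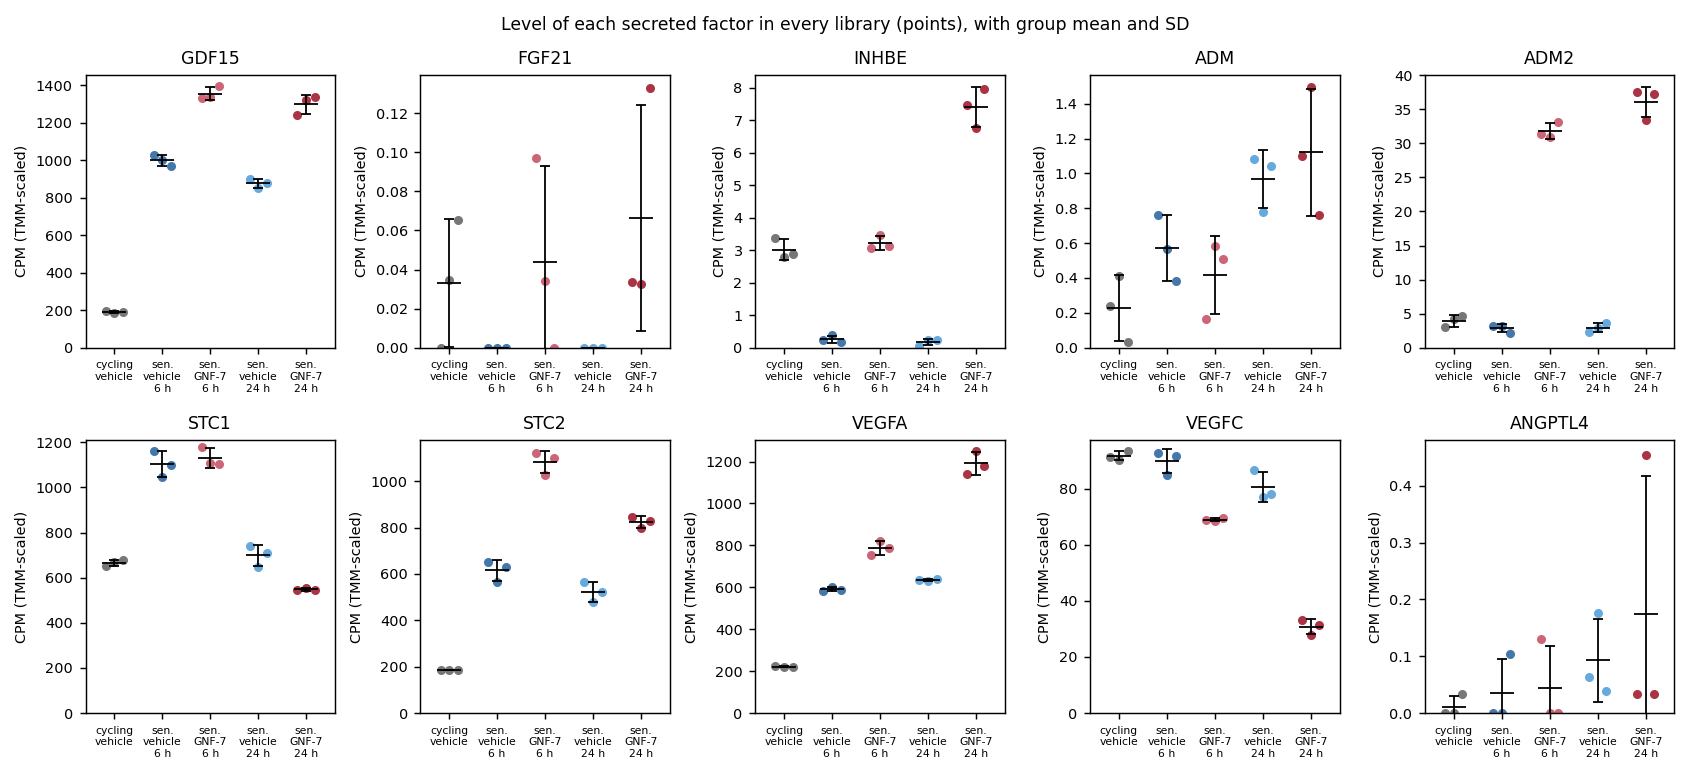
Levels of the 10 genes in each of the 15 libraries, in TMM-scaled CPM (linear axes from 0, a scale of its own for each gene); points are libraries, bars the group mean and SD. GDF15, STC2 and VEGFA sit lowest in cycling cells, ADM2 and INHBE stand highest in the GNF-7 groups except that INHBE in cycling cells overlaps INHBE with GNF-7 at 6 h, and VEGFC is lowest with GNF-7 at 24 h.

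**Figure D2:**
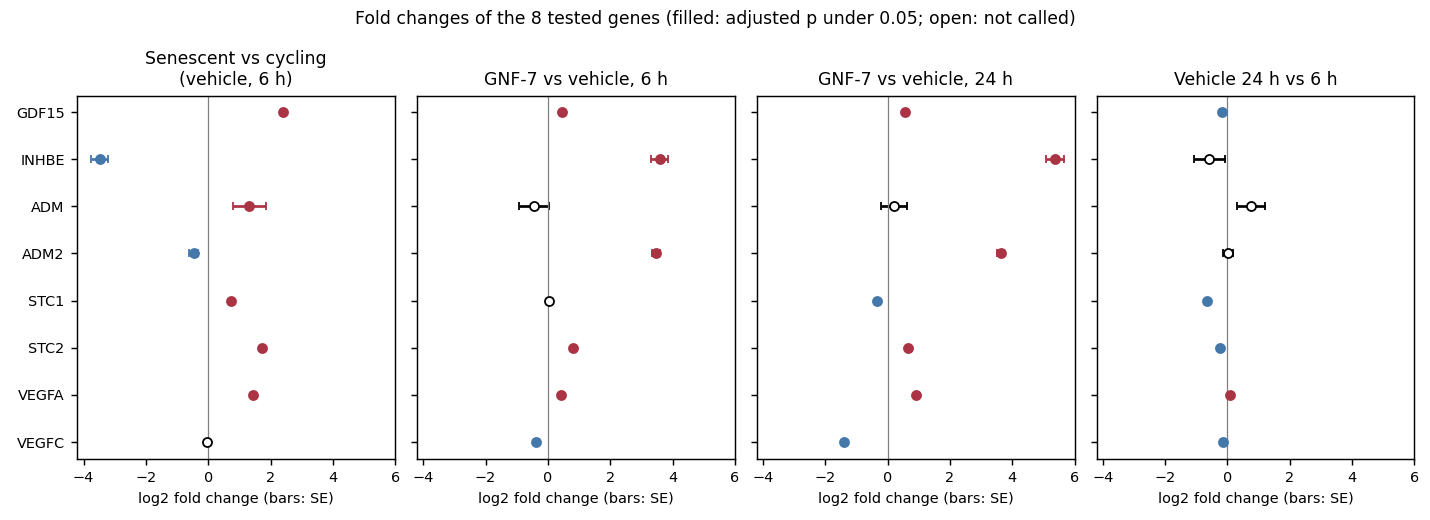
Log2 fold changes of the 8 tested genes (x axis; bars are the SE) for senescence, for GNF-7 against vehicle at 6 h and at 24 h, and for vehicle at 24 h against 6 h; filled points were called at an adjusted p under 0.05. ADM2 and INHBE lie far to the right in both GNF-7 panels, at 3.47 and 3.58 at 6 h and at 3.63 and 5.36 at 24 h.

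GDF15, a distant member of the TGF-beta family and a stress hormone that acts on the brainstem receptor GFRAL, is annotated at chr19:18374731-18389176 on the plus strand (GRCh38, GENCODE 29, as for the other genes). Its level was 197, 187 and 189 CPM in the cycling libraries and 1029, 1003 and 971 CPM in the vehicle-treated senescent libraries at 6 h. With GNF-7 at 6 h it was 1335, 1338 and 1398 CPM. At 24 h it was 902, 852 and 878 CPM with vehicle and 1241, 1320.0 and 1336 CPM with GNF-7. Every senescent library stood above every cycling library, and at each time every GNF-7 library stood above every vehicle library; the GNF-7 libraries of the 2 times overlapped. GDF15 was 5.24-fold higher in senescent than in cycling vehicle cells (log2 2.39, SE 0.037, edgeR adjusted p = 5.66e-53). GNF-7 added 1.36-fold at 6 h (log2 0.44, SE 0.034, adjusted p = 5.46e-17) and 1.48-fold at 24 h (log2 0.57, SE 0.034, adjusted p = 1.98e-22).

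INHBE encodes the beta E subunit of inhibins and activins, is best known from liver and lies at chr12:57452323-57459280 on the plus strand. Its level was 3.38, 2.79 and 2.87 CPM in cycling cells, and 0.232, 0.379 and 0.173 CPM after senescence in the vehicle libraries at 6 h. With GNF-7 at 6 h it was 3.08, 3.46 and 3.12 CPM. Thus the cycling and the 6 h GNF-7 libraries overlapped, and the senescent vehicle libraries lay apart below both. At 24 h the vehicle libraries held 0.0638, 0.247 and 0.232 CPM and the GNF-7 libraries 7.48, 6.76 and 7.97 CPM, the highest of the 5 groups. INHBE was 11.2-fold lower in senescent than in cycling vehicle cells (log2 fold change -3.49, SE 0.28, edgeR adjusted p = 3.46e-17). GNF-7 raised it 12.0-fold at 6 h (log2 3.58, SE 0.28, adjusted p = 4.57e-17) and 41.1-fold at 24 h (log2 5.36, SE 0.28, adjusted p = 1.48e-25). The senescence comparison and the 6 h comparison share the senescent vehicle libraries. Depth limits the low side: the vehicle libraries held 5 to 12 INHBE counts at 6 h and 2 to 7 at 24 h, and those with GNF-7 95 to 101 and 208 to 240 counts.

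The 24 h effect on INHBE was larger than the 6 h effect by 1.78 on the log2 scale (SE 0.52, edgeR adjusted p = 0.00547). That difference was not called without senescent vehicle 6 h replicate 2 (1.40) or without senescent vehicle 24 h replicate 1 (1.34). The markers of hepatocytes, a main source of INHBE in the body, summed to 3.35 to 9.96 CPM over the 4 genes. That sum was highest in cycling cells at 8.61 to 9.96 CPM and 3.99 to 4.28 CPM in the group with the most INHBE, and the 1 hepatocyte marker that could be tested, SERPINA1, was not called with GNF-7 at either time. In senescence SERPINA1 fell, as INHBE did (log2 -0.79, edgeR adjusted p = 9.9e-07); its part in that result was not tested.

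FGF21, a fibroblast growth factor that acts as a hormone through FGF receptors with the co-receptor KLB, is annotated at chr19:48755559-48758333 on the plus strand. Its counts were 0, 1 and 2 in cycling cells, 0 in all 6 senescent vehicle libraries, 3, 1 and 0 with GNF-7 at 6 h, and 1, 1 and 4 with GNF-7 at 24 h. At 3 counts, the limit that a count of 0 allows, the level is 0.0947 to 0.121 CPM over the libraries. All but 1 of the 15 libraries held 3 counts or fewer, too few for the test, so no difference between groups was tested.

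For 7 of the 10 genes a RefSeq promoter (GRCh38.p14) was at hand, and the 250 bases before the gene start were searched on both strands for the ATF4 and C/EBP composite core TGATGNAA, the cAMP response element TGACGTCA and the hypoxia response cores ACGTG and GCGTG. STC1, VEGFA and INHBE had no entry. TGATGNAA occurred in FGF21 alone among the 7, 54 bases before the start on the minus strand, and in 3.26% of 27305 promoters. No member held TGACGTCA, present in 1.74% of promoters. The FGF21 stretch is shown because it holds that core, in a gene with at most 4 counts in any library. It covers the 133 bases before the gene start at chr19:48755391-48755523 on the plus strand, with the match in capitals.
FGF21: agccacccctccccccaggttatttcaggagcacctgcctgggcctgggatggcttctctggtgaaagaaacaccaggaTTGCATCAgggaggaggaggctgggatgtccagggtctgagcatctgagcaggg

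The adrenomedullins are small peptides that widen vessels and act through CALCRL or CALCR with a RAMP partner. ADM2, also called intermedin, at chr22:50481556-50486440 on the plus strand, stood at 3.02, 4.17 and 4.60 CPM in cycling cells, and at 3.18, 3.22 and 2.15 CPM after senescence in the vehicle libraries at 6 h. With GNF-7 at 6 h it stood at 31.4, 30.9 and 33.1 CPM. The 24 h libraries held 2.33, 2.93 and 3.56 CPM with vehicle and 37.5, 33.5 and 37.2 CPM with GNF-7. All 6 GNF-7 libraries lay far above the other 9, whose 3 groups overlapped. GNF-7 raised ADM2 11.1-fold at 6 h (log2 3.47, SE 0.117, edgeR adjusted p = 1.10e-31) and 12.4-fold at 24 h (log2 3.63, SE 0.117, adjusted p = 4.40e-33). The difference between the times was 0.16 on the log2 scale (SE 0.18) and was not called (adjusted p = 0.572). The fall in senescence (log2 -0.47, SE 0.15, adjusted p = 0.00489) came from overlapping libraries; it was not called without cycling replicate 3 (-0.35), without senescent vehicle 6 h replicate 3 (-0.31), or when the table was limited to genes with a mean of 5 CPM (-0.32).

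The promoter of ADM2 is shown because this gene rose most at 6 h beside INHBE. The 250 bases lie at chr22:50481293-50481542 on the plus strand; the capitals mark the 1 match, to GCGTG, 225 bases before the start. GCGTG was common, in 31.6% of all promoters and in ADM, ADM2, STC2 and VEGFC of the 7 searched.
ADM2: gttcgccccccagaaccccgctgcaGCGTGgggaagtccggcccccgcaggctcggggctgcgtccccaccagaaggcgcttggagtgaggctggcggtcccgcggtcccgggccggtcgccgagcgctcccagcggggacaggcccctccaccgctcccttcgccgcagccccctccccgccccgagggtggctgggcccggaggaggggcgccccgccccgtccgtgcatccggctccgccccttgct

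ADM, at chr11:10304680-10307397 on the plus strand, was near the limit of detection. Its counts were 6, 12 and 1 in cycling cells, 23, 18 and 11 in senescent vehicle cells at 6 h, and 5, 17 and 16 with GNF-7 at 6 h. At 24 h they were 34, 22 and 27 with vehicle and 33, 46 and 23 with GNF-7. The group means ran from 0.229 CPM in cycling cells to 1.12 CPM with GNF-7 at 24 h, and neighbouring groups overlapped except between the vehicle groups of 6 h and 24 h. The rise in senescence (log2 1.32, SE 0.53, edgeR adjusted p = 0.0245) came from overlapping libraries, and without cycling replicate 3 (log2 0.77) or without senescent vehicle 6 h replicate 1 (log2 1.06) it was not called. No effect of GNF-7 on ADM was called: the log2 difference was -0.45 (SE 0.48) at 6 h and 0.21 (SE 0.41) at 24 h. At 24 h with GNF-7 the family members thus stood at 1.12 ± 0.365 CPM for ADM and 36.0 ± 2.24 CPM for ADM2 (SD, n = 3), or 0.593 and 8.43 CPM per kb of the longest coding transcript.

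The stanniocalcins are glycoprotein hormones, named for a role in the calcium balance of fish, that bind and inhibit the pregnancy-associated plasma proteases PAPPA and PAPPA2. STC2, at chr5:173314713-173329503 on the minus strand, held 184, 184 and 186 CPM in cycling cells, 653, 563 and 629.8 CPM in the 6 h vehicle libraries of senescent cells, and 1120.0, 1028 and 1099 CPM with GNF-7 at 6 h. At 24 h it held 564, 481 and 520.2 CPM with vehicle and 846, 798 and 828 CPM with GNF-7. Only the vehicle groups of 6 h and 24 h overlapped. STC2 was 3.33-fold higher in senescent vehicle cells (log2 1.73, SE 0.054, edgeR adjusted p = 4.39e-18), and GNF-7 raised it further, 1.76-fold at 6 h (log2 0.82, SE 0.052, adjusted p = 1.60e-11) and 1.58-fold at 24 h (log2 0.66, SE 0.052, adjusted p = 2.29e-10). The effect of GNF-7 differed between the times by -0.16 on the log2 scale (adjusted p = 0.117, not called). With the replicate number as a block the same difference was called (adjusted p = 0.00515), as it was in the fits that left out replicate 1 of vehicle at 6 h (-0.20), replicate 2 of GNF-7 at 6 h (-0.20) or replicate 2 of vehicle at 24 h (-0.22).

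STC1, at chr8:23841915-23854807 on the minus strand, was the higher of the pair in cycling cells and took another course. It held 652, 668 and 677 CPM in cycling cells, 1162, 1046 and 1101 CPM in the 6 h vehicle libraries of senescent cells and 1179, 1108 and 1104 CPM with GNF-7 at 6 h. At 24 h it held 739, 649 and 711 CPM with vehicle and 544, 556 and 545 CPM with GNF-7, the lowest group. The libraries with and without GNF-7 overlapped at 6 h and did not at 24 h. The senescent vehicle libraries of 24 h overlapped the cycling libraries, and those of 6 h lay above both. STC1 was 1.66-fold higher in senescent vehicle cells at 6 h (log2 0.73, SE 0.038, edgeR adjusted p = 4.40e-24), and then 1.58-fold lower in the 24 h than in the 6 h vehicle cells (log2 -0.66, SE 0.038, adjusted p = 1.12e-19). GNF-7 left a log2 difference of 0.04 (SE 0.038, adjusted p = 0.492) at 6 h, which was called at 0.09 (adjusted p = 0.0404) when the table was limited to genes with a mean of 5 CPM. At 24 h GNF-7 lowered STC1 1.28-fold (log2 -0.35, SE 0.038, adjusted p = 1.15e-11). The effects at the 2 times differed by -0.39 (SE 0.054, adjusted p = 4.28e-08).

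VEGFA is the main growth factor of blood vessels and acts through KDR and FLT1 with the neuropilins; it lies at chr6:43770184-43786487 on the plus strand. It held 223, 220 and 219 CPM in cycling cells, 583, 603 and 589 CPM in the 6 h vehicle libraries of senescent cells, and 755, 821 and 787 CPM with GNF-7 at 6 h. At 24 h it held 634, 628 and 637 CPM with vehicle and 1140.1, 1252 and 1181 CPM with GNF-7. None of the 5 groups overlapped its neighbour in level. VEGFA was 2.68-fold higher in senescent vehicle cells (log2 1.42, SE 0.036, edgeR adjusted p = 5.03e-42), and GNF-7 raised it 1.33-fold at 6 h (log2 0.41, SE 0.035, adjusted p = 1.20e-15) and 1.88-fold at 24 h (log2 0.91, SE 0.035, adjusted p = 2.77e-32). The difference between the times was 0.50 (SE 0.049, adjusted p = 6.30e-13). Its exons share 188 bases with the antisense gene AL136131.3; the kit keeps strand, but the strand setting of the counting is not given in the sources used here.

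VEGFC, the growth factor of lymphatic vessels that acts through FLT4 with NRP2, lies at chr4:176683538-176792727 on the minus strand. Its level was 91.5, 90.3 and 93.4 CPM in cycling cells, 92.9, 85.0 and 91.7 CPM in the 6 h vehicle libraries of senescent cells, and 68.9, 68.4 and 69.5 CPM with GNF-7 at 6 h. At 24 h it was 86.7, 76.9 and 78.0 CPM with vehicle and 33.2, 27.8 and 31.5 CPM with GNF-7. Cycling and senescent vehicle libraries overlapped, and every GNF-7 library lay below all 9 others. GNF-7 lowered VEGFC 1.30-fold at 6 h (log2 -0.38, SE 0.050, edgeR adjusted p = 3.45e-09) and 2.61-fold at 24 h (log2 -1.39, SE 0.054, adjusted p = 2.18e-31). The effects at the 2 times differed by -1.005 on the log2 scale (SE 0.073, adjusted p = 1.13e-17). For senescence the log2 difference was -0.03 (SE 0.049, adjusted p = 0.590), and its sign changed with the scaling.

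The promoter of VEGFC is shown as that of the member that fell with GNF-7 at both times. The 250 bases before the RefSeq gene start lie at chr4:176792923-176793172 and are written along the minus strand, with the match to GCGTG, 59 bases before the start, in capitals as its reverse complement. ACGTG, present in 18.5% of promoters, was found in ANGPTL4 alone among the 7, 234 bases before its start. Of the 3 matches to GCGTG in STC2, 2 share 1 base. The upstream windows of GDF15, ADM and STC2 lie in annotated exons over 241 or 250 bases and are not printed.
VEGFC: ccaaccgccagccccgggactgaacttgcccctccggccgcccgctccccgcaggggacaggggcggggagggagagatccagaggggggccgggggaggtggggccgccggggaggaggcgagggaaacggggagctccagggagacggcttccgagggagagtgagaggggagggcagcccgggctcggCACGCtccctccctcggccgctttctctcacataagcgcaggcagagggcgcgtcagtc

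ANGPTL4, a secreted inhibitor of lipoprotein lipase that is also described as an angiogenic factor, lies at chr19:8363289-8374373 on the plus strand. Its counts were 0, 0 and 1 in cycling cells, 0, 0 and 3 in senescent vehicle cells at 6 h, and 4, 0 and 0 with GNF-7 at 6 h. At 24 h they were 2, 5 and 1 with vehicle and 1, 14 and 1 with GNF-7, so that 1 library held nearly all of the group's 16 counts. These counts were too few for the test, so no difference between groups was tested.

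Because members of the 2 families moved apart, their ratios were taken within each library, after their values had been seen. The ratio of VEGFA to VEGFC counts was 2.35 to 2.44 in cycling cells, 6.28 to 7.10 in senescent vehicle cells at 6 h and 10.9 to 12.0 with GNF-7 at 6 h. It was 7.31 to 8.17 with vehicle and 34.3 to 45.0 with GNF-7 at 24 h. The ratio of STC2 to STC1 counts was 0.275 to 0.283 in cycling cells, 0.538 to 0.572 in senescent vehicle cells at 6 h and 0.928 to 0.996 with GNF-7 at 6 h. It was 0.732 to 0.763 with vehicle and 1.43 to 1.56 with GNF-7 at 24 h. Neither of these ratios overlapped between any groups. The ratio of ADM2 to ADM counts, with ADM at few counts, was 10.1 to 141 in cycling cells and 4.17 to 5.67 in senescent vehicle cells at 6 h. With GNF-7 at 6 h it was 52.9 to 194. At 24 h it was 2.15 to 3.77 with vehicle and 22.4 to 48.7 with GNF-7, so cycling cells overlapped the GNF-7 groups. Ratios do not depend on how libraries are scaled. They are a description of the values above and not a further test.

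**Figure D3:**
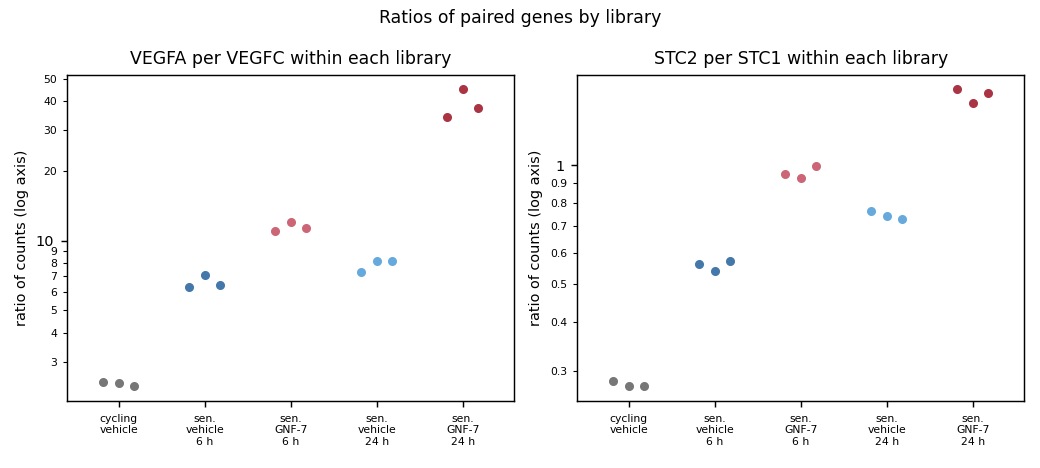
Counts of VEGFA per count of VEGFC (left) and of STC2 per count of STC1 (right) in each library, on log axes; points are libraries of the 5 groups. Both ratios are lowest in cycling cells (medians 2.43 and 0.275) and highest with GNF-7 at 24 h (medians 37.4 and 1.52).

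Per kb of the longest coding transcript, levels with GNF-7 at 6 h ran from GDF15 (1131 CPM per kb) over STC1 (291), VEGFA (223) and STC2 (202) to VEGFC (33.4), ADM2 (7.43) and INHBE (1.33 CPM per kb). In cycling cells STC1 (171 CPM per kb) and GDF15 (159 CPM per kb) stood first and INHBE (1.24 CPM per kb) stood above ADM2 (0.919 CPM per kb). For VEGFA this scale depends on the gene model, since its annotated exons together span 14431 bases and its longest coding transcript 3535; over all exons it stood at 54.6 CPM per kb with GNF-7 at 6 h.

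Vehicle cells also changed between 6 h and 24 h. GDF15 (log2 -0.19, edgeR adjusted p = 2.32e-05), STC1 (-0.66), STC2 (-0.24, adjusted p = 0.00225) and VEGFC (-0.16, adjusted p = 0.0188) fell and VEGFA rose by 0.10 (adjusted p = 0.0397), while ADM, ADM2 and INHBE were not called. That is 5 of 8 called against 18.5% of all tested genes, 9.26% higher and 9.29% lower. No member changed at least 2-fold, against 0.302% higher and 0.232% lower over all. The STC2 and VEGFC libraries of the 2 times overlapped, and the VEGFC fall was not called when replicate 1 (-0.13) or 3 (-0.14) of vehicle at 6 h, or replicate 2 (-0.12) or 3 (-0.13) of vehicle at 24 h, was left out. The VEGFA rise was not called in 8 of 24 alternatives, among them the fits that left out replicate 1 (0.09) or 3 (0.10) of vehicle at 6 h or any replicate of vehicle at 24 h (0.09 to 0.10), and with total counts as the scale its value was -0.01. With that scale 12.5% of all called genes in this comparison were higher at 24 h, in place of 49.9%.

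Many receptor genes for these hormones were low in these cells, as many genes of the count table were. Of 22 receptor and co-receptor genes, 12 stayed under 1 CPM in every group. GFRAL, KLB, KL, CALCR, RAMP2 and RAMP3 had at most 3 counts in every library. Of all 60670 genes, 23229 had no count and 18563 were tested, and the share under 1 CPM was not taken. NRP1, a co-receptor of VEGFA, held 817 ± 2.13 CPM in cycling cells and 669 ± 28.0 CPM with GNF-7 at 24 h (SD, n = 3). These groups differ in senescence, drug and time together. In senescence NRP1 fell (log2 -0.12, edgeR adjusted p = 0.00364), though not with every scaling or filter. With GNF-7 it fell at 24 h against vehicle (log2 -0.25, adjusted p = 6.14e-08) and was not called at 6 h. NRP2, the co-receptor of VEGFC, fell with its ligand, from 104 ± 4.58 to 38.4 ± 1.12 CPM at 24 h (log2 -1.44, edgeR adjusted p = 1.55e-35) and by 0.24 on the log2 scale at 6 h (adjusted p = 7.08e-06); in senescence it rose by 0.44 (adjusted p = 2.48e-13). FGFR1, the usual FGF21 receptor beside KLB, fell at 24 h from 155 ± 4.50 to 113 ± 1.20 CPM (log2 -0.46, adjusted p = 2.71e-15). ACVR1C, which binds activins as ALK7, rose in senescence from 0.197 to 0.891 CPM (log2 2.19, adjusted p = 7.04e-05), at low counts and between 1.56 and 2.97 on the log2 scale over the alternatives. Of the 13 receptors tested, 4 rose and 4 fell in senescence (against 35.6% and 34.4% over all tested genes), 1 rose and 2 fell with GNF-7 at 6 h (against 17.9% and 21.4%), and 4 rose and 3 fell at 24 h (against 29.3% and 29.7%). With total counts as the scale 2 fell in senescence in place of 4. The fall of RAMP1 in senescence came from overlapping libraries and was not called in 9 of 22 alternatives. At 6 h FGFR2, the 1 that rose, was not called when replicate 2 or 3 of vehicle or replicate 1 of GNF-7 was left out, FGFR3, which fell, was not called without that replicate 2 or replicate 3 of GNF-7, and 1 to 4 receptors fell when 1 library was left out. At 24 h the rise of ACVR2B (adjusted p = 0.0499) was not called in 20 of 24 alternatives and that of FGFR4 in 2 of 23, and 3 to 6 receptors rose when 1 library was left out.

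Of 13 tested genes for enzymes and partners of the hormones, 9 rose and 3 fell in senescence (against 35.6% and 34.4% over all tested genes), 3 rose and 6 fell with GNF-7 at 6 h (against 17.9% and 21.4%), and 1 rose and 6 fell at 24 h (against 29.3% and 29.7%). At 6 h the 6 that fell became 3 when replicate 2 of GNF-7 was left out, where the proteases MBTPS1, PCSK6 and PAPPA were not called. The rise of CPE, a carboxypeptidase of hormone precursors, at 6 h was not called in 9 of 24 alternatives. For the fall of PAPPA at 6 h that number was 9 of 24 too, other scalings and DESeq2 among them. In senescence the rise of GPIHBP1 came from overlapping libraries and was not called in 5 of 22 alternatives. PAPPA2, the protease bound by the stanniocalcins, stood at 4.14 ± 0.227 CPM in cycling cells, 6.34 ± 0.361 CPM in senescent vehicle cells at 6 h and 13.4 ± 1.36 CPM with GNF-7 at 6 h. At 24 h it stood at 5.21 ± 1.07 CPM with vehicle and 68.6 ± 3.32 CPM with GNF-7 (log2 3.72, edgeR adjusted p = 1.75e-41). Its relative PAPPA rose in senescence, from 19.5 ± 0.297 to 64.6 ± 2.54 CPM (log2 1.73, adjusted p = 7.55e-36), and fell at 24 h with GNF-7, from 63.3 ± 2.32 to 47.5 ± 1.08 CPM (log2 -0.41, adjusted p = 3.89e-10). With GNF-7 at 24 h, PAPPA2 thus stood above PAPPA in CPM, the reverse of the other 4 groups; the lengths of the 2 transcripts were not taken into account.

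FURIN, a proprotein convertase that cuts VEGFC and TGF-beta family precursors, fell from 217 ± 8.23 CPM with vehicle to 139 ± 0.796 CPM with GNF-7 at 6 h (log2 -0.65, edgeR adjusted p = 1.38e-21) and from 203 ± 5.19 to 80.1 ± 3.17 CPM at 24 h (log2 -1.34, adjusted p = 2.89e-37). PCSK7, of the same family, fell at 24 h as well (log2 -0.86, adjusted p = 5.40e-24). CCBE1, which assists the maturation of VEGFC, fell in senescence by 1.01 on the log2 scale (adjusted p = 4.66e-28) and with GNF-7 at 24 h from 56.7 ± 1.67 to 24.7 ± 0.167 CPM (log2 -1.20, adjusted p = 3.65e-29). PAM, which amidates peptides such as adrenomedullin, rose in senescence from 227 ± 9.58 to 401 ± 17.9 CPM and fell with GNF-7 at 24 h from 458 ± 26.2 to 307 ± 6.64 CPM (log2 -0.58, adjusted p = 1.07e-19). At 24 h with GNF-7, then, VEGFC, its co-receptor NRP2 and, of the genes for its maturation, FURIN, PCSK7 and CCBE1 were lower. ADAMTS3, the protease that works with CCBE1 (log2 -0.70, adjusted p = 0.0861), and the convertase PCSK5 (0.10, adjusted p = 0.662) were not called there. All 8 mesenchymal markers were called lower in that comparison too, against 29.7% of all tested genes. Their median log2 change was -0.94, beside 0.04 over all. The part of the markers in these results was not tested.

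**Figure D4:**
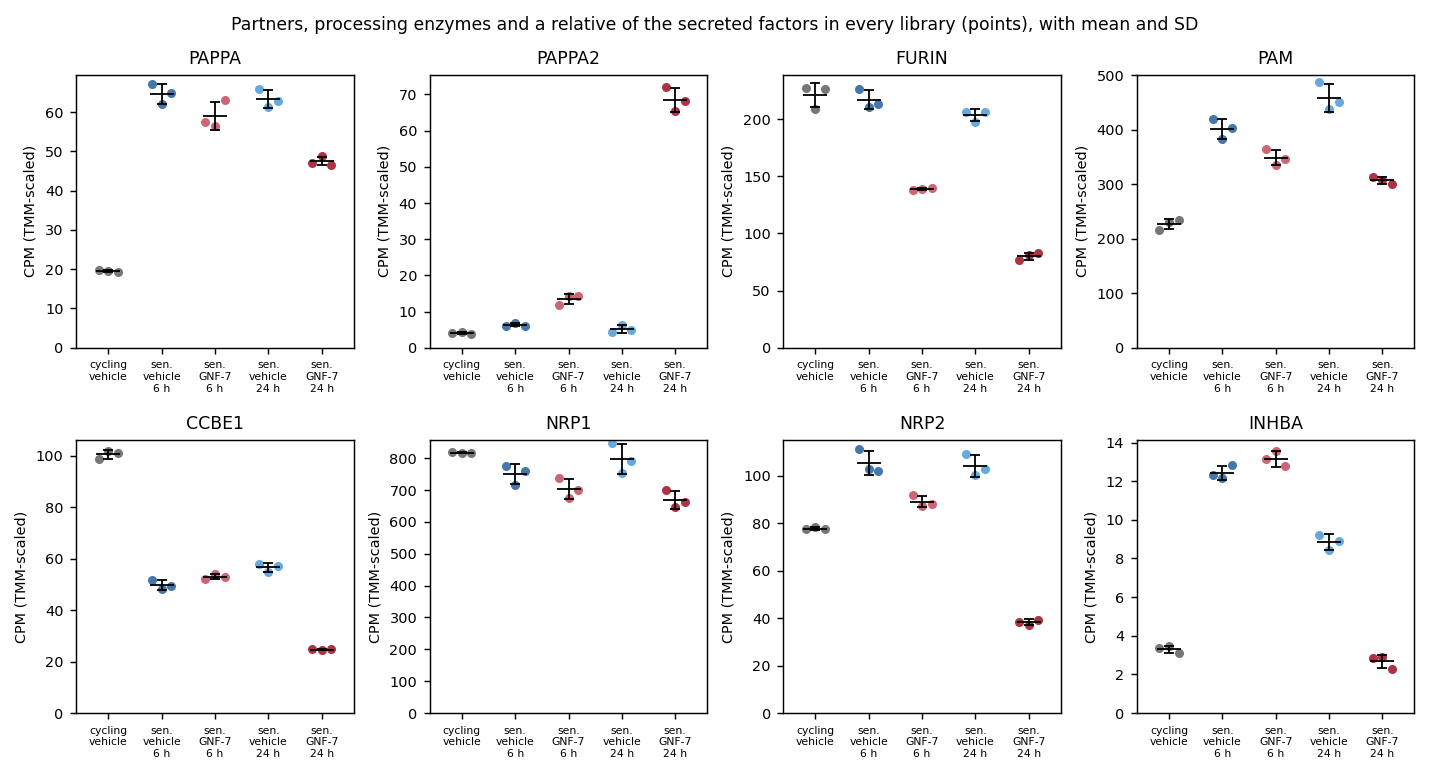
Levels of PAPPA, PAPPA2, FURIN, PAM, CCBE1, NRP1, NRP2 and INHBA in each library in TMM-scaled CPM (linear axes from 0); points are libraries, bars the group mean and SD. PAPPA2 reaches 68.6 CPM with GNF-7 at 24 h, where FURIN (80.1 CPM), NRP2 (38.4 CPM) and CCBE1 (24.7 CPM) are lowest.

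Relatives of the members moved in both directions. Of 24, 16 stayed under 1 CPM in every group, a share that was not taken over all genes. Of the 11 tested, 6 rose and 3 fell in senescence (against 35.6% and 34.4% over all tested genes). With GNF-7, 2 rose and 2 fell at 6 h (against 17.9% and 21.4%), and 4 rose and 3 fell at 24 h (against 29.3% and 29.7%). The 4 that rose at 24 h became 2 when replicate 2 of GNF-7 at 24 h was left out, where INHA and INHBC were not called. Among genes for inhibin and activin subunits, INHBA went against INHBE in senescence and with GNF-7 at 24 h. It rose in senescence from 3.31 ± 0.181 to 12.4 ± 0.354 CPM (log2 1.91, edgeR adjusted p = 1.88e-21). With GNF-7 at 24 h it fell from 8.85 ± 0.398 to 2.68 ± 0.343 CPM (log2 -1.72, adjusted p = 3.97e-18). At 6 h GNF-7 gave no call for INHBA (log2 0.08, adjusted p = 0.581). In vehicle INHBA fell between 6 h and 24 h (log2 -0.49, adjusted p = 0.00059). INHA rose in senescence (log2 3.64, adjusted p = 4.66e-14) from 0.146 to 1.83 CPM, and INHBB fell (log2 -1.75, adjusted p = 3.85e-16). In the VEGF family VEGFB rose at 24 h with GNF-7 by 0.42 (adjusted p = 6.33e-12) and PGF fell by 0.38 (adjusted p = 1.61e-07). GDF11 fell at both times (log2 -0.43 and -0.74, adjusted p = 5.29e-10 and 4.74e-19).

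Among regulators of the stress response, most fell in senescence and most rose with GNF-7. Of 22 genes of that list, 7 rose and 15 fell in senescence, while 14 rose and 3 fell with GNF-7 at 6 h and 14 rose and 6 fell at 24 h; the median log2 changes were -0.42, 1.20 and 1.38. Over all tested genes 35.6% rose and 34.4% fell in senescence, 17.9% and 21.4% at 6 h and 29.3% and 29.7% at 24 h, with medians of 0.06, 0.01 and 0.04. ATF4 fell in senescence from 326 ± 0.848 to 182 ± 7.89 CPM (log2 -0.84, edgeR adjusted p = 2.07e-30) and rose with GNF-7 to 433 ± 5.83 CPM at 6 h (log2 1.25, adjusted p = 1.65e-38) and from 192 ± 3.84 to 611 ± 10.7 CPM at 24 h (log2 1.67, adjusted p = 1.65e-45). TRIB3, a pseudokinase target of ATF4, fell by 0.96 in senescence and rose by 2.81 and 3.18 with GNF-7, and CHAC1, a glutathione-degrading enzyme, by 3.41 and 4.05 (all on the log2 scale). DDIT3, the transcription factor CHOP, rose in all 3 comparisons, by 1.19, 2.72 and 3.02. INHBE and ADM2 were thus lower in senescence and higher with GNF-7, as ATF4, TRIB3 and CHAC1 were. The ADM2 fall came from overlapping libraries and was not called in 3 alternatives. GDF15, STC2 and VEGFA were higher in all 3 comparisons. So were DDIT3, SESN2, ATF3, CEBPB, NUPR1 and PPP1R15A of this list (log2 0.64 to 1.20 in senescence). EIF2AK3 rose in senescence (0.39) and fell with GNF-7. The senescence and 6 h comparisons share the senescent vehicle libraries.

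Targets of p53, the other known route to GDF15, all 12 rose in senescence, with a median log2 change of 1.25, among them MDM2 (1.504, edgeR adjusted p = 7.4e-43) and CDKN1A (1.43, adjusted p = 1.1e-42). Over all tested genes 35.6% rose there, with a median of 0.06. With GNF-7, 9 rose and none fell at 6 h (against 17.9% and 21.4% over all) and 5 rose and 3 fell at 24 h (against 29.3% and 29.7%), with medians of 0.22 and 0.04 beside 0.01 and 0.04 over all. MDM2 rose by 0.45 at 6 h, and CDKN1A fell by 0.26 at 24 h.

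Of 23 hypoxia genes, 10 rose and 7 fell in senescence (against 35.6% and 34.4% over all tested genes), 6 rose and 7 fell with GNF-7 at 6 h (against 17.9% and 21.4%), and 6 rose and 12 fell at 24 h (against 29.3% and 29.7%). With total counts as the scale, or in the table limited to a mean of 5 CPM, 3 fell in senescence in place of 7. The median log2 changes of the list were 0.13, 0.06 and -0.13. EPAS1, the gene for HIF-2 alpha, rose in senescence from 49.7 ± 2.71 to 162 ± 2.29 CPM (log2 1.71, edgeR adjusted p = 1.36e-42) and with GNF-7 by 0.45 at 6 h and 1.14 at 24 h. HIF1A rose in senescence by 0.68 and fell with GNF-7 at 24 h, from 429 ± 17.0 to 305 ± 11.8 CPM (log2 -0.49, adjusted p = 3.36e-18). NDRG1 rose in all 3 comparisons (0.69, 0.43 and 1.07), whereas the glycolytic enzyme LDHA fell in all 3 (-0.63, -0.37 and -1.25). The carbonic anhydrase CA9 fell at 24 h from 35.8 ± 3.73 to 8.84 ± 0.715 CPM (log2 -2.02, adjusted p = 1.53e-30). SLC2A1, a glucose carrier, fell from 269 ± 20.1 to 129 ± 5.11 CPM (log2 -1.06, adjusted p = 3.12e-26).

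Of 10 genes of the PPAR pathway, which controls FGF21 and ANGPTL4 in other tissues, 6 were tested; 3 rose and 1 fell in senescence, 1 rose and 1 fell with GNF-7 at 6 h, and 4 rose and none fell at 24 h. Over all tested genes 35.6%, 17.9% and 29.3% rose and 34.4%, 21.4% and 29.7% fell. At 6 h 2 fell when replicate 1 of the cycling cells, replicate 1 of vehicle at 6 h, replicate 2 of GNF-7 at 6 h, or replicate 1 or 2 of GNF-7 at 24 h was left out. At 24 h 1 fell without replicate 1 of GNF-7 at 6 h or replicate 2 of GNF-7 at 24 h. CPT1A, the carrier step of fatty acid oxidation, rose in senescence by 1.17 (edgeR adjusted p = 8.8e-27). PPARA rose by 0.47 with GNF-7 at 24 h (adjusted p = 1.3e-06).

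Of 15 other angiogenic factors tested, 5 rose and 8 fell in senescence (against 35.6% and 34.4% over all tested genes), 1 rose and 7 fell with GNF-7 at 6 h (against 17.9% and 21.4%), and 4 rose and 8 fell at 24 h (against 29.3% and 29.7%). The 4 that rose at 24 h became 2 when replicate 2 or 3 of vehicle or replicate 3 of GNF-7 at 24 h was left out. CCN2, a matricellular factor, fell from 243 ± 12.7 CPM with vehicle to 89.9 ± 2.73 CPM with GNF-7 at 6 h and from 151 ± 14.0 to 31.9 ± 2.42 CPM at 24 h (log2 -1.43 and -2.25, edgeR adjusted p = 1.03e-15 and 2.64e-19). CCN1, of the same family, fell by 1.31 and by 2.10. JAG1, a Notch ligand, was the 1 gene of the list that rose at 6 h, from 65.5 ± 1.93 to 139 ± 1.55 CPM (log2 1.08, adjusted p = 3.77e-29). The chemokine CXCL8 and FGF2 fell in senescence, by 1.72 and by 1.03.

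Inhibitors of vessel growth fell with GNF-7 at 24 h in 7 of 10 tested, and 1 rose; at 6 h 4 fell and 1 rose, and in senescence 6 rose and 3 fell. Over all tested genes 29.7% fell and 29.3% rose at 24 h, 21.4% and 17.9% at 6 h, and 34.4% and 35.6% in senescence. The 5 calls at 6 h became 3 when replicate 1 of vehicle, or replicate 2 or 3 of GNF-7, was left out. THBS1, thrombospondin 1, fell at 24 h from 482 ± 37.3 to 62.7 ± 0.812 CPM (log2 -2.94, edgeR adjusted p = 1.10e-15), and SPARC from 3247 ± 238 to 623 ± 18.5 CPM (log2 -2.38, adjusted p = 5.97e-19). TIMP3 fell by 1.28 and SEMA3A by 1.66. With GNF-7 at 24 h, then, VEGFA rose while most tested genes of both the angiogenic and the inhibitor list fell.

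The genes whose course over the 15 libraries was most like that of each member were found by the root mean square difference in log2(CPM + 0.5), each gene centred on its own mean, among 11211 genes with a mean of at least 5 CPM. They are a description without a test. For ADM2 they were CHAC1 (difference 0.283) and ALDH1L2 (0.377), an enzyme of mitochondrial folate metabolism. For INHBE they were PSAT1 (0.279) and PHGDH (0.289), both of serine synthesis; PSAT1 went from 233 CPM in cycling cells to 59.2 CPM in senescent vehicle cells and 317 CPM with GNF-7 at 6 h. INHBE itself stood at 0.261 CPM in senescent vehicle cells at 6 h and 0.181 CPM at 24 h. Both lie under the 0.5 added before the logarithm, which narrows its changes on this scale. For STC1 the genes most alike were HIF1A (0.094) and NFKB2 (0.142), and for STC2 PLEKHG1 (0.162) and CREBRF (0.170). For GDF15 they were PURPL (0.153), a long noncoding RNA, and NECTIN4 (0.155). For VEGFA they were MAPK13 (0.0854) and HS1BP3 (0.101), and for VEGFC LPCAT2 (0.0838) and CHST11 (0.0889). For ADM, near its limit of detection, they were LINC01355 and LZTS3 (0.253 each).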

How the data were processed

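RNA of 15 HT-1080 libraries was sequenced after a stranded mRNA preparation, per the labels' protocols. The authors deposited raw counts per gene as 1 table. The submitters' processing notes name bcl2fastq 2.20.0.422, STAR 2.7.9a, featureCounts 1.5.1 and the build GRCh38; their settings, the annotation release and the strand setting are not given in the sources used here. Of 60673 lines, 3 were left out, since they hold 1 entry, ANK2, broken over lines, which left 60670 genes, of which 60400 matched a name.

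Counts were fitted with edgeR 4.0.16 in R 4.3.3 (filterByExpr, TMM scaling, robust quasi-likelihood test, 1 mean per group over all 15 libraries, Benjamini-Hochberg over 18563 genes, threshold 0.05), after tests on simulated counts. The comparisons were vehicle-treated senescent against cycling cells, exposure to GNF-7 against vehicle at either time, the difference of those 2 effects, and vehicle at 24 h against 6 h. DESeq2 1.42.0 and limma 3.58.1 (voom) were alternatives, as were other scalings and filters, fits of the compared groups only, a replicate block and fits without each library. No 2 libraries of the same group agreed within sampling noise (chi-square per degree of freedom 3.02 to 12.7). Nothing says that the replicates came from separate cultures beyond the labels' word biological; p-values measure the spread between these libraries.

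In the 24 h comparison libraries with the same replicate number deviated together (correlations 0.157, 0.125 and 0.106 over genes). In the other comparisons they did not in every pair. The labels do not state that the numbers pair the samples, and low correlations with 3 libraries per group cannot settle it. The main fit used no replicate block, and a fit with the block is described below. Gene coordinates came from GENCODE 29 and promoters from RefSeq. Named genes were the 10 members, up to 4 genes per list and comparison with the smallest p, receptors and partners of the members, the 2 genes most like each member, and TERF2. The members and lists were chosen with earlier results of these data known.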

Additional observations from a re-analysis of the deposited data

Results flagged for a closer look

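GNF-7 had unequal effects at 24 h and at 6 h on 5 of the 8 tested genes, by a test of the difference itself in edgeR (adjusted p over all 18563 genes; 30.8% of these were called). On the log2 scale the effect at 24 h minus that at 6 h was 1.78 for INHBE, -1.005 for VEGFC, 0.50 for VEGFA, -0.39 for STC1 and 0.13 for GDF15. The value for GDF15 (adjusted p = 0.0375) was not called in 15 of 24 alternatives, 10 of which left out 1 library, with values from 0.10 to 0.18 over all 24. For INHBE the value was not called in 2 fits that left out 1 library (1.40 and 1.34). Its vehicle libraries held 5 to 12 counts at 6 h and 2 to 7 at 24 h. INHBE rose in 3 of 3 GNF-7 libraries at each time, and VEGFC fell in 3 of 3, which does not bear on the difference between the times. Groups of 3 libraries were not searched for outlying libraries.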

How the results depend on the processing

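Over 24 alternatives per comparison (23 or 22 for genes that a filter removes), the members gave 949 values for 40 results: 900 kept their direction and side of the threshold, 33 lost the call, 6 gained it and 10 changed sign. VEGFC in senescence was 0.10 with total counts, 0.12 in the table limited to a mean of 5 CPM (adjusted p = 0.0213), 0.028 in the fit of the compared groups and 0.0057 without senescent vehicle 6 h replicate 2 (-0.059 to 0.0057 when any 1 library was left out). STC1 with GNF-7 at 6 h was -0.0037 without that library (up to 0.073 without another). ADM with GNF-7 at 24 h was -0.056 without GNF-7 24 h replicate 2 (up to 0.42 without another). In vehicle at 24 h against 6 h, ADM2 was -0.088 with total counts, -0.14 without vehicle 6 h replicate 3 and -0.13 without vehicle 24 h replicate 3 (up to 0.18 without another library), and VEGFA was -0.013 with total counts. Of the context genes, NRP1 in senescence (-0.12) was 0.010 with total counts and 0.028 in the 5 CPM table, the 2 sign changes among 4837 values; 159 of the 4837 lost the call and 4676 kept it. The cause was not tested.

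When 1 library was left out, 5 to 7 members were called in senescence, 6 in every fit for GNF-7 at 6 h, 7 in every fit at 24 h, 3 to 5 for the difference between the times (3 without senescent vehicle 6 h replicate 2) and 3 to 5 over time in vehicle (3 without vehicle 6 h replicate 1 or 3 or vehicle 24 h replicate 2 or 3). With the replicate block 7, 6, 7, 6 and 5 members were called, in place of 7, 6, 7, 5 and 5, and no member's call changed other than that of STC2 between the times. Over all tested genes, 70%, 39.3%, 58.9%, 30.8% and 18.5% were called in the main fit of these comparisons. The shares in the other fits are not printed here. With total counts as the scale the median log2 change over all genes went from 0.06 to 0.19 in senescence and from 0.01 to -0.10 over time in vehicle, where calls went from 3443 to 5019. Depth limits FGF21, ANGPTL4, ADM and INHBE in senescent vehicle cells, where few counts were found.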
